A study of Homo sapiens with 5 samples.

Results

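The long non-coding RNAs MALAT1, NEAT1, KCNQ1OT1, GAS5, SNHG1, SNHG8, EPB41L4A-AS1 and DBH-AS1 were followed in single SW480 cells recovered from zebrafish xenografts. They were chosen by symbol, with earlier results of these data known, and each of the 8 had exactly 1 row in all 5 count tables. Of 21200 human genes listed in any table, 15266 were listed in all 5. Requiring counts in at least 10 wells as well kept 15028. SW480 is an established colorectal cancer cell line derived from a primary tumor. Parental SW480 cells carrying GFP were injected into zebrafish embryos, and tumors were dissected at 1 or 4 days post injection (dpi). The tumors of a time point were pooled, dissociated in the presence of the inhibitor Y-27632, and DAPI-negative cells were sorted into plates of 384 wells. The 1 dpi cells filled 3 plates (libraries 6, 7 and 8) and the 4 dpi cells 2 (libraries 10 and 11), and no plate of uninjected cells was used here. Both time points therefore share the line, the GFP vector and the protocol of dissociation and sorting. It is not stated whether they were dissociated and sorted on the same occasion. No plate held both, so the occasion cannot be told apart from time. Sorting excluded DAPI-stained cells as dead, so the 4 dpi wells stand for cells still in the tumors and unstained at that time. Whether each well received such a cell was not tested. It is not stated whether plates of one time point came from separate pools, so the p-values measure the spread between plates, which may be technical.

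MALAT1 is an abundant RNA of nuclear speckles, the compartments that store splicing factors. NEAT1 is the scaffold of paraspeckles, nuclear bodies that it builds together with proteins such as NONO and SFPQ, and it is induced by many kinds of stress. KCNQ1OT1 is a very long antisense transcript that silences neighbouring genes of an imprinted domain on the paternal chromosome. GAS5, SNHG1, SNHG8 and EPB41L4A-AS1 are a different kind of RNA: they carry small nucleolar RNAs (snoRNAs) in their introns, and the spliced host RNA leaves the nucleus and is commonly degraded by nonsense-mediated decay when ribosomes translate it. DBH-AS1 is an antisense transcript of DBH, the gene of dopamine beta-hydroxylase. The name "nuclear long non-coding RNAs" thus fits the first 3 by background knowledge and fits the 4 snoRNA hosts less well. No nuclear fraction was measured in these libraries.

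In the GENCODE annotation (version 44, GRCh38), MALAT1 lies at chr11:65497640-65508073 and NEAT1 at chr11:65422774-65445540, both on the plus strand, and the longest transcript of each is a single exon. KCNQ1OT1 lies at chr11:2597308-2700003 on the minus strand, inside KCNQ1 at chr11:2444654-2849105 on the plus strand, and its longest transcript is also 1 exon, of 91667 bases. GAS5 lies at chr1:173858559-173868882 (minus), SNHG1 at chr11:62851978-62855953 (minus), SNHG8 at chr4:118278703-118285316 (plus) and EPB41L4A-AS1 at chr5:112160526-112164818 (plus). DBH-AS1 lies at chr9:133654586-133657313 on the minus strand, within the span of DBH at chr9:133636363-133659329 on the plus strand. SARDH, the sarcosine dehydrogenase gene, follows at chr9:133663560-133739955 on the minus strand, so that 6246 bases separate the 3′ end of SARDH from the start of DBH-AS1 on the same strand. The strand used in counting was not stated, and reads of KCNQ1OT1 and KCNQ1, of DBH-AS1 and DBH, or of MALAT1 and its antisense RNA TALAM1 cannot be told apart where these genes overlap.

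The libraries were primed with oligo(dT), which anneals to poly(A) tails and can also anneal to runs of A inside an RNA. The longest run of A in the longest transcript of a member differed widely among them, and these windows are shown because the members that moved together below differ in this feature. Capitals mark the run, with 20 bases on either side, and all are given 5′ to 3′ from GRCh38. The part of such runs in the counts was not tested.
MALAT1: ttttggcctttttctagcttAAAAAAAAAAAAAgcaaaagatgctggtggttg
NEAT1: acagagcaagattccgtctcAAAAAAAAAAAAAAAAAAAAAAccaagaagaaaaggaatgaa
KCNQ1OT1: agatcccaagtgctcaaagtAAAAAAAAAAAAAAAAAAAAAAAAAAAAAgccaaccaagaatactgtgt
GAS5: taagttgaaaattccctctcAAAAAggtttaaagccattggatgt
DBH-AS1: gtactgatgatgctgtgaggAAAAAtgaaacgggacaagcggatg
These windows lie at chr11:65506078-65506130 (MALAT1, plus strand), chr11:65440823-65440884 (NEAT1, plus), chr11:2610697-2610765 (KCNQ1OT1, minus), chr1:173866715-173866759 (GAS5, minus) and chr9:133656258-133656302 (DBH-AS1, minus). The longest runs were 13 bases in MALAT1, 22 in NEAT1 and 29 in KCNQ1OT1, and 5 to 7 bases in the other members. Runs of at least 12 A, searched on the transcript strand only, numbered 1 in MALAT1, 3 in NEAT1 and 9 in KCNQ1OT1, and none was present in GAS5, SNHG1, SNHG8, EPB41L4A-AS1 or DBH-AS1. Of 62700 annotated genes, 7.68% had such a run in their longest transcript. Long transcripts have more of them: 31.2% of the 5453 genes whose longest transcript was between 0.5 and 2 times as long as that of MALAT1 had one, and 50.2% of the 534 such genes for NEAT1. Only 3 genes were of like length to KCNQ1OT1, and this count, like those for MALAT1 and NEAT1, includes the member itself.

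Of 1920 wells, 826 had counts in more than 2000 genes and under 25% of their counts in mitochondrially encoded (MT-) genes. These are called passing wells, 533 at 1 dpi and 293 at 4 dpi. Another 60 wells had more than 2000 genes and at least 25% MT- counts, and 55 of these were from 4 dpi (25 in library 10 and 30 in library 11). The 1 dpi libraries held 1, 3 and 1 such wells. Total counts per library ranged from 4480653 to 7625769 unique molecular identifiers (UMIs), and passing wells had medians of 4996 to 6372 genes, against 2998 and 2694 in the high-mitochondrial wells of libraries 10 and 11. All 8 colorectal epithelial markers checked were present in the passing wells of every library, at 5323 to 6471 CPM summed. CPM are UMIs scaled so that a group's nuclear-encoded UMIs, all human counts but the MT- genes, sum to 1000000. Only 3 of 5 markers of leukocytes, 3 of 6 of stroma and endothelium, and 1 of 3 of erythroid cells were among the genes kept. Reads were aligned to human transcripts, so these markers do not measure zebrafish cells. They summed to at most 20.6 CPM for each list. Some markers nonetheless differed between the time points of the comparison below: at 4 dpi COL1A1, a stromal collagen (log2 change 2.13), and EPCAM (0.25) rose, and HBA1, an erythroid globin (-1.17), CDH1 (-0.74), KRT18 (-0.42) and KRT19 (-0.38) fell. Their part in the results was not tested.

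The first comparison asked how the 8 RNAs differed between cells sampled soon after injection and cells that remained in the tumors at 4 dpi. Levels are CPM over the summed passing wells of a library, and they are not scaled to transcript length, so members are not ranked by them. Of the 8 members, 6 rose and 1 fell at 4 dpi, whereas GAS5 did not pass the test. The test was edgeR's quasi-likelihood test on library sums with Benjamini-Hochberg adjustment over all 12617 genes tested, of which 27.7% were called, 13.3% higher and 14.4% lower. The median log2 change was 0.40 over the 8 members and 0.00055 over all genes. Since the members were chosen with earlier results of these data known, these counts and medians describe the set only.

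Among the nuclear-body RNAs, MALAT1 was at 2551, 2576 and 2408 CPM in libraries 6, 7 and 8, and at 3802 and 3535 in libraries 10 and 11. The 4 dpi libraries were both above the 1 dpi libraries, and MALAT1 rose 1.43-fold (95% interval 1.27 to 1.60, edgeR adjusted p = 0.00024). NEAT1 was at 268, 212 and 273 CPM at 1 dpi and at 588 and 580 at 4 dpi. With no overlap and almost equal values in the 4 dpi plates, it rose 2.27-fold (interval 1.96 to 2.64, edgeR adjusted p = 8.7e-07). KCNQ1OT1 was at 341, 380 and 420 CPM at 1 dpi and at 426 and 575 at 4 dpi. Here the lower 4 dpi library was close to the highest 1 dpi library, and the rise of 1.29-fold (interval 1.08 to 1.53, edgeR adjusted p = 0.029) was not called without library 6, 7 or 11 (adjusted p = 0.098, 0.054 and 0.46) or in wells under 15% MT- counts (adjusted p = 0.27). The log2 change of KCNQ1OT1 was 0.36, and 0.68 in thinned wells (edgeR adjusted p = 0.00021).

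The snoRNA hosts did not move together. SNHG8 was at 445, 511 and 516 CPM at 1 dpi and at 730 and 627 at 4 dpi, a rise of 1.35-fold (interval 1.17 to 1.56, edgeR adjusted p = 0.0043) that was not called without library 10 (adjusted p = 0.069). EPB41L4A-AS1 was at 269, 279 and 292 CPM at 1 dpi and at 387 and 326 at 4 dpi, 1.24-fold higher (interval 1.08 to 1.44, edgeR adjusted p = 0.025), and it was not called without library 6, 7 or 10 (adjusted p = 0.070, 0.052 and 0.34). In both RNAs library 10 was the highest of all 5. SNHG1 moved the other way, from 1043, 1103 and 1051 CPM to 915 and 769, 1.30-fold lower at 4 dpi (interval 1.13 to 1.49, edgeR adjusted p = 0.0076). Its call was lost without library 11 (adjusted p = 0.13) and in wells under 15% MT- counts (adjusted p = 0.14). GAS5 was at 453, 551 and 576 CPM at 1 dpi and at 604 and 539 at 4 dpi, so the groups overlapped, and the 4 to 1 dpi ratio was 1.06 with an interval of 0.906 to 1.24 (edgeR adjusted p = 0.59). Among the other non-coding snoRNA host genes, 19 of 22 listed symbols were tested: 9 rose, 2 fell, and the median log2 change was 0.29. DANCR (log2 change 1.18) and SNHG3 (1.11) had the smallest p-values among those that rose, and SNHG17 (-0.47) and SNHG15 (-0.40) were the pair that fell.

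DBH-AS1 had the largest change of the 8 and the fewest UMIs. It was at 2.27, 2.53 and 2.12 CPM at 1 dpi, from 15, 12 and 9 UMIs, and at 16.6 and 31.0 at 4 dpi, from 58 and 103 UMIs. The 9.93-fold rise (interval 6.28 to 15.7, edgeR adjusted p = 2e-06) was exceeded by 3 of the 12617 genes tested. DBH-AS1 passed the filter on low counts through the 4 dpi libraries, where it was high. Its rank among the genes tested is therefore a description only. Without that filter its log2 change was 3.31 (edgeR adjusted p = 4.1e-07, 14991 genes). The UMIs were spread over wells: 14 of 228, 9 of 142 and 7 of 163 passing wells held one at 1 dpi, and 30 of 132 and 37 of 161 at 4 dpi, with at most 3 UMIs in a well at 1 dpi, 8 in library 10 and 19 in library 11. After thinning each well to 5000 nuclear-encoded UMIs, these shares were 0.905%, 0% and 1.26% at 1 dpi, and 3.17% and 12.3% at 4 dpi. At 0 of 139 thinned wells in library 7 a share of up to 2.16% is allowed by a count of 0, for counting error only. The level also differed with MT- share, described here without a test. In wells under 5% MT- counts DBH-AS1 was at 4.43 CPM at 1 dpi (2 UMIs, 14 wells) and at 2.26 at 4 dpi (3 UMIs, 37 wells). From 5 to 10% it was at 1.95 and 20.7, and from 15 to 20% at 1.22 and 42.0. The rise was thus not seen in the wells with the lowest MT- share.

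DBH itself had 5, 4 and 6 UMIs in the passing wells at 1 dpi and 4 and 4 at 4 dpi, too few for a test. SARDH, by contrast, rose with DBH-AS1. It was at 1.82, 2.11 and 3.30 CPM at 1 dpi and at 11.1 and 10.2 at 4 dpi, a log2 change of 2.15 ± 0.34 (SE, edgeR adjusted p = 0.00028). In library 10, 10 of the 30 wells with DBH-AS1 also held a UMI of SARDH, which was seen in 24 of all 132 wells. In library 11 it was 13 of 37 against 24 of 161. Wells with DBH-AS1 were deeper (medians of 24374 against 20881 nuclear-encoded UMIs in library 10, and 20519 against 15106 in library 11), and the part of depth in this overlap was not tested.

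**Figure D1:**
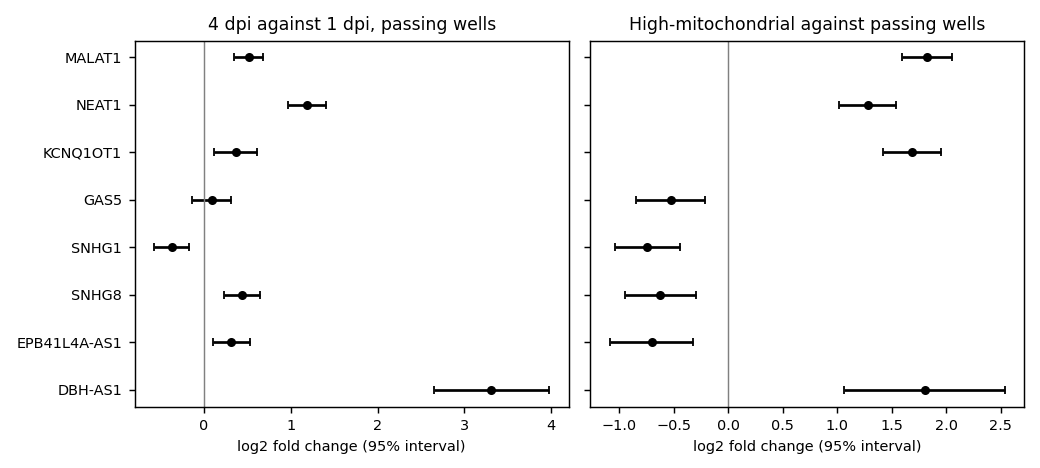
Log2 fold changes of the 8 members (points) with 95% intervals (bars) from the edgeR fits, for 4 against 1 dpi in passing wells (left) and for high-mitochondrial against passing wells of libraries 10 and 11 (right). On the right MALAT1, NEAT1, KCNQ1OT1 and DBH-AS1 lie between 1.28 and 1.82 and the snoRNA hosts between -0.74 and -0.53.

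The plates carried 2 run names, and within them the log2 ratios of 4 to 1 dpi were as follows, first for library 10 over libraries 6 and 7 and then for library 11 over library 8. They were 0.57 and 0.55 for MALAT1, 1.29 and 1.09 for NEAT1, 0.24 and 0.45 for KCNQ1OT1, and 2.79 and 3.87 for DBH-AS1. SNHG8 gave 0.61 and 0.28, EPB41L4A-AS1 0.50 and 0.16, and SNHG1 -0.23 and -0.45, whereas GAS5 differed in sign (0.27 and -0.095). With the ERCC spike-in UMIs as the scale instead of edgeR's TMM factors, none of the 8 members was called and 3 genes of 12617 were, with an SE of 0.72 to 0.75 for the members. Passing wells held 94556, 104772 and 98566 nuclear-encoded UMIs per 1000 ERCC UMIs in libraries 6, 7 and 10. In libraries 8 and 11, of the other run name, they held 49651 and 43353, so this scale differed between run names more than between time points. The fit on that scale moved the median log2 change of all genes to -0.20, and GAS5 to -0.055. Within run names, the log2 ratios per ERCC UMI were 0.55 and 0.36 for MALAT1, 1.29 and 0.89 for NEAT1, and 0.22 and 0.26 for KCNQ1OT1. They were 2.77 and 3.68 for DBH-AS1, 0.59 and 0.086 for SNHG8, and -0.25 and -0.65 for SNHG1. EPB41L4A-AS1 (0.48 and -0.036) and GAS5 (0.24 and -0.29) differed in sign. An exact permutation test of 3 against 2 libraries could not give a p below 0.1.

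The second comparison set the high-mitochondrial wells against the passing wells of the same plates. Relative to all nuclear-encoded UMIs, MALAT1, NEAT1, KCNQ1OT1 and DBH-AS1 rose and the 4 snoRNA hosts fell, although per spike-in UMI, given further on, NEAT1 had the opposite sign. Only libraries 10 and 11 had at least 10 such wells, so the edgeR fit with library as a block rested on 4 sums and 1 residual degree of freedom, and the spread was largely borrowed from other genes. All 8 members were called, and of 11014 genes tested 10.7% were, 5.69% higher and 4.98% lower. The median log2 change was 0.38 over the members and -0.035 over all genes, again as a description of a set chosen with earlier results known.

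MALAT1 was at 12201 and 14169 CPM in the high-mitochondrial wells of libraries 10 and 11, against 3802 and 3535 in their passing wells. Both plates showed the rise, which was 3.53-fold (interval 3.01 to 4.14, edgeR adjusted p = 4.3e-11). KCNQ1OT1 was at 1239 and 2086 CPM against 426 and 575, a rise of 3.21-fold (interval 2.67 to 3.86, edgeR adjusted p = 4.1e-09). Its log2 change of 1.68 was 2.42 when wells with more than 1000 genes were taken. NEAT1 was at 1508 and 1373 against 588 and 580, a rise of 2.43-fold (interval 2.03 to 2.91, edgeR adjusted p = 2.7e-07). DBH-AS1 was at 80.5 and 83.2 against 16.6 and 31.0, from 18 and 16 UMIs in the high-mitochondrial wells, a rise of 3.49-fold (interval 2.09 to 5.80, edgeR adjusted p = 0.0018). The log2 change of DBH-AS1 was 1.80, and 2.67 ± 0.51 (SE) in thinned wells. After thinning it was seen in few wells of libraries 10 and 11: 6 of 18 and 6 of 17 high-mitochondrial wells, and 4 of 126 and 19 of 154 passing wells. Without thinning, 12 of 25 and 7 of 30 high-mitochondrial wells held it, against 30 of 132 and 37 of 161 passing wells. The value of NEAT1 depended on which passing wells it was set against. In an alternative chosen after seeing the data, the passing wells were limited to those with fewer than 4000 genes (25 and 52 wells), nearer in gene number to the high-mitochondrial wells. The log2 change of NEAT1 was then -0.064 ± 0.17 (SE, edgeR adjusted p = 0.86), whereas MALAT1 (1.74), KCNQ1OT1 (1.03) and DBH-AS1 (1.63) were still called.

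The snoRNA hosts were lower in the high-mitochondrial wells of both plates. SNHG1 was at 582 and 442 CPM against 915 and 769, 1.67-fold lower (interval 1.36 to 2.05, edgeR adjusted p = 0.0016). EPB41L4A-AS1 was at 242 and 203 against 387 and 326, 1.63-fold lower (interval 1.25 to 2.12, edgeR adjusted p = 0.015). SNHG8 was at 403 and 494 against 730 and 627, 1.54-fold lower (interval 1.23 to 1.93, edgeR adjusted p = 0.012). GAS5 was at 425 and 380 against 604 and 539, 1.44-fold lower (interval 1.15 to 1.80, edgeR adjusted p = 0.030). Of these 4, DESeq2 called SNHG1 alone (adjusted p of 0.20 for GAS5, 0.094 for SNHG8 and 0.15 for EPB41L4A-AS1). Of 18 other snoRNA host genes tested, 7 fell and 3 rose with a median log2 change of -0.0077. C6orf48 (-1.31) and SNHG12 (-1.13) fell, and DANCR (0.55) and SNHG10 (1.17) rose.

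On the scale of the spike-in RNA, the number of UMIs per ERCC UMI stands for RNA per well, and the 2 sets of members again differed in both plates. High-mitochondrial wells held 0.327 and 0.302 times as many nuclear-encoded UMIs per ERCC UMI as passing wells of libraries 10 and 11. MALAT1, however, was at 393 and 186 UMIs per 1000 ERCC UMIs in the high-mitochondrial wells and at 375 and 153 in the passing wells. KCNQ1OT1 was at 39.97 and 27.3 against 42.0 and 24.9. NEAT1 was at 48.6 and 18.0 against 58.0 and 25.2, and DBH-AS1 at 2.60 and 1.09 against 1.63 and 1.35. In an edgeR fit scaled to ERCC UMIs, the log2 changes were 0.17 ± 0.15 for MALAT1, 0.033 ± 0.15 for KCNQ1OT1, 0.15 ± 0.34 for DBH-AS1 and -0.37 ± 0.15 for NEAT1 (SE), and of these NEAT1 alone passed the test, with the opposite sign (adjusted p = 0.035). The snoRNA hosts fell by 2.17 to 2.39 on the log2 scale in the same fit. SNHG1, for example, was at 18.8 and 5.79 UMIs per 1000 ERCC UMIs in the high-mitochondrial wells against 90.1 and 33.3. The higher share of MALAT1 in these wells thus went with 1.05 and 1.21 times the MALAT1 UMIs per spike-in UMI, and that of KCNQ1OT1 with 0.952 and 1.095 times. On this scale 8780 genes were called lower and 19 higher, and the median log2 change of all genes was -1.67, against 627 higher and 549 lower with TMM.

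**Figure D2:**
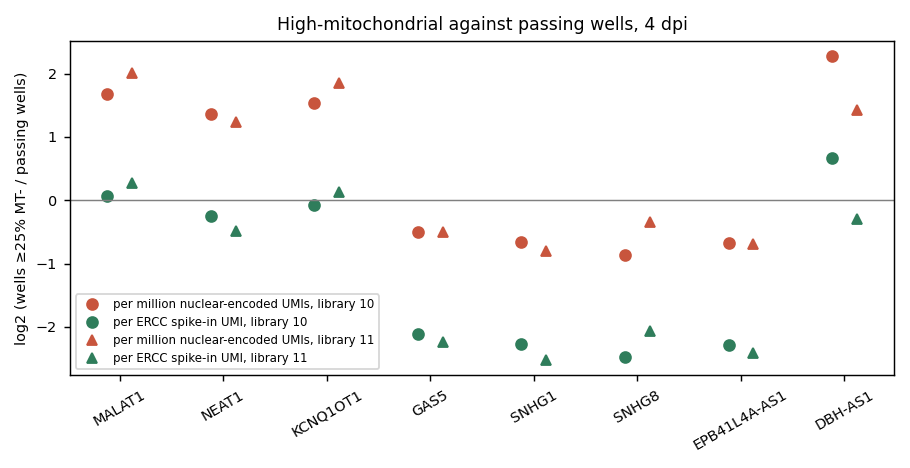
Log2 ratio of high-mitochondrial to passing wells (y axis) for each member in library 10 (circles) and library 11 (triangles), in CPM (red) and per ERCC spike-in UMI (green). Per spike-in UMI, MALAT1, NEAT1, KCNQ1OT1 and DBH-AS1 lie between -0.48 and 0.67 and the 4 snoRNA hosts between -2.53 and -2.07.

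At 1 dpi the 5 high-mitochondrial wells together held 219 UMIs of MALAT1 (5887 CPM), 43 of NEAT1 (1156), 17 of KCNQ1OT1 (457), 24 of GAS5 (645), 46 of SNHG1 (1236), 18 of SNHG8 (484) and 4 of EPB41L4A-AS1 (108). No UMI of DBH-AS1 was seen, and a count of 0 allows up to 80.6 CPM there. The wells were uneven: the 1 such well of library 8 had 2 UMIs of MALAT1 (186 CPM), against 2408 CPM in the passing wells of that plate. Per spike-in UMI, MALAT1 was at 0.439, 0.496 and 0.0268 times the passing wells in libraries 6, 7 and 8. Whether the difference between well classes depended on time was not tested, since each 1 dpi library was below the minimum of 10 such wells.

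**Figure D3:**
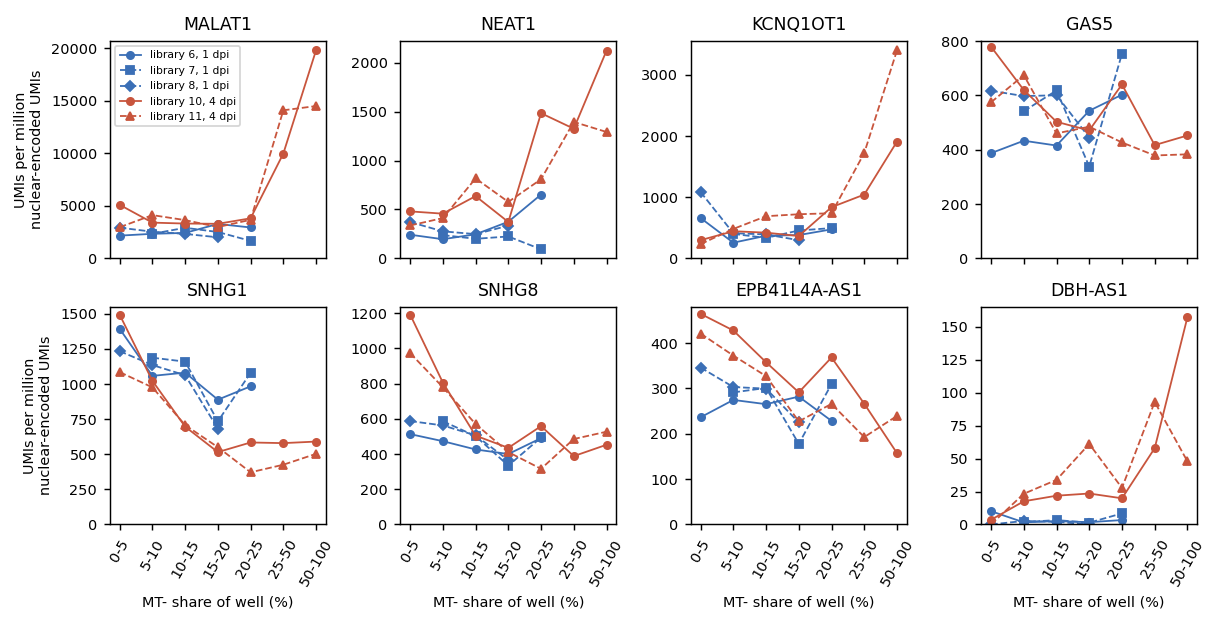
CPM, that is, UMIs scaled to the nuclear-encoded UMIs (y axis, linear, from 0) of each member in wells with more than 2000 genes grouped by MT- share (x axis, percent), 1 line per library, for groups of at least 5 wells. In libraries 10 and 11, MALAT1 is far higher above 25% than below, while SNHG1 and SNHG8 decline from the lowest group to that of 15 to 20%.

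Grouping the wells by MT- share showed where along that range the levels differed, as a description with no test. In library 10, MALAT1 was at 5088 CPM in wells under 5%, between 3283 and 3805 in the 4 groups from 5 to 25%, at 9966 from 25 to 50% and at 19791 above 50% (8 wells). In library 11 it stayed between 2961 and 4109 below 25% and was at 14081 and 14483 in the groups above. KCNQ1OT1 went from 297 to 1908 CPM between the lowest and highest groups of library 10 and from 232 to 3399 in library 11. At 1 dpi KCNQ1OT1 was highest under 5%, at 804 CPM over 14 wells, and between 343 and 463 in the groups from 5 to 25%. In wells under 5% it was thus lower at 4 dpi, at 273 CPM over 37 wells, unlike in the sums of all passing wells. NEAT1 was already high before the limit in library 10, at 1485 CPM in the 21 wells of 20 to 25% against 372 in the 31 wells of 15 to 20%. SNHG8 differed already below the limit: 1192 CPM in wells under 5% of library 10 and 435 at 15 to 20%, and 973 and 411 in library 11. SNHG1 likewise went from 1494 to 515 in library 10 and from 1085 to 550 in library 11 over the same groups. At 1 dpi few wells exceeded the limit, and MALAT1 ranged from 2331 to 3268 in library 6 and from 1658 to 2904 in library 7 over the groups from 5 to 25%, and from 1999 to 2533 in library 8 over those from 5 to 20%. Wells with a higher MT- share also had fewer genes (medians of 6548 under 5% and 2807 above 50% in library 10), and the part of gene number in these trends was not tested.

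Within the passing wells of one plate, MALAT1 varied widely from cell to cell. Its median was 15.2 to 24.1 UMIs per 10000 nuclear-encoded UMIs over the 5 libraries, with quartiles of 8.50 and 44.97 in library 11. In the high-mitochondrial wells the medians were 100 and 106. KCNQ1OT1 had medians of 3.27 and 4.39 in the passing wells of libraries 10 and 11 and of 14.1 and 22.3 in their high-mitochondrial wells, and NEAT1 of 2.69 and 3.61 against 10.1 and 11.8. Thus the medians over wells differed in the same direction as the sums. At a common depth of 5000 UMIs, NEAT1 was seen in 55.2%, 46.8% and 55.3% of passing wells at 1 dpi and in 72.2% and 71.4% at 4 dpi. Without thinning these shares were 85.5%, 83.8%, 82.8%, 93.2% and 94.4%. Too shallow for this depth were 3 to 7 passing wells per library and 7 and 13 high-mitochondrial wells of libraries 10 and 11. The injected cells were all of the same line, so no cell type that lacks these RNAs was at hand as a measure of free RNA.

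Apart from DBH-AS1, the members formed the same 2 sets when compared across passing wells, within each library, on the log scale. MALAT1, NEAT1 and KCNQ1OT1 were correlated with each other (median Pearson's r over the 5 libraries of 0.38 for MALAT1 and NEAT1, 0.40 for MALAT1 and KCNQ1OT1, and 0.43 for NEAT1 and KCNQ1OT1). The snoRNA hosts were correlated among themselves, from 0.25 for SNHG1 and EPB41L4A-AS1 to 0.57 for SNHG1 and SNHG8. Between the sets the median r lay between -0.061 and 0.17, and for DBH-AS1 with any other member between -0.097 and 0.11. These are descriptions over 132 to 228 wells that share a plate, and all values share the depth of their well. With every well thinned to 5000 UMIs the first 3 values were 0.26, 0.28 and 0.28, and that of SNHG1 and SNHG8 was 0.37. The sets were then less distinct, since SNHG1 and EPB41L4A-AS1 were at 0.14 and MALAT1 and SNHG1, of different sets, at 0.15.

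Across all 826 passing wells, centred within libraries, the genes most like MALAT1, NEAT1, KCNQ1OT1, GAS5 and SNHG1 among 9206 genes were in part other members. NEAT1 was most like KCNQ1OT1 (r = 0.41), MALAT1 (0.40) and LAMB3 (0.33), which encodes a laminin chain. MALAT1 was most like AKAP9 (0.44), a large scaffold protein of the centrosome and Golgi, KCNQ1OT1 (0.41) and the splicing factor RBM25 (0.41). GAS5 was most like 3 other snoRNA hosts, ZFAS1 (0.52), C6orf48 (0.45) and SNHG5 (0.41). SNHG1 was most like SNHG12 (0.62), also a snoRNA host, EIF4A2 (0.52), a translation initiation helicase whose introns hold snoRNAs, and SNHG8 (0.52). KCNQ1OT1 was most like 3 non-coding transcripts, LINC00504 (0.63), LOC100131257 (0.62) and LOC101929486 (0.58). In thinned wells 9 of these 15 genes were still among the 3 most like their member, including all 3 of KCNQ1OT1 at r between 0.33 and 0.34.

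KCNQ1OT1 also stood apart in the 1034 wells that failed the limit of 2000 genes. In these wells it was at 5791, 3784 and 10181 CPM in libraries 6, 7 and 8 and at 8317 and 8074 in libraries 10 and 11. Between 17.0% and 37.9% of a library's KCNQ1OT1 UMIs came from them, whereas they held 1.16% to 8.69% of its MALAT1 UMIs and 1.19% to 4.73% of its nuclear-encoded UMIs. Grouped by the number of genes detected, wells with 501 to 1000 genes held on average 9.48 UMIs of KCNQ1OT1 at 1 dpi and 13.5 at 4 dpi. Wells with 2001 to 4000 genes held 3.34 and 8.32. In UMIs per well MALAT1 was higher with more genes instead, going from 2.02 to 10.6 at 1 dpi and from 11.1 to 54.0 at 4 dpi. GAS5 went from 0.591 to 4.99 and from 0.221 to 4.20 between the same groups. Such counts also follow the depth of a well. In CPM both MALAT1 and KCNQ1OT1 were lower in the group with more genes. MALAT1 went from 2080 to 1355 at 1 dpi and from 11975 to 7893 at 4 dpi. KCNQ1OT1 went from 9790 to 426 and from 14632 to 1216. KCNQ1OT1 was seen in 36 of the 66 wells with 501 to 1000 genes at 1 dpi and in 68 of 77 at 4 dpi, and 12 to 41 low wells per library held 10 or more of its UMIs, with up to 205 in a well of library 8. LINC00504, LOC100131257 and LOC101929486 had the same pattern, at 2686, 3619 and 1180 CPM in the low wells of 1 dpi against 110, 146 and 65.0 in the passing wells, and at 3867, 4615 and 1730 against 146, 216 and 84.3 at 4 dpi. What gave these wells their KCNQ1OT1 counts was not tested.

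**Figure D4:**
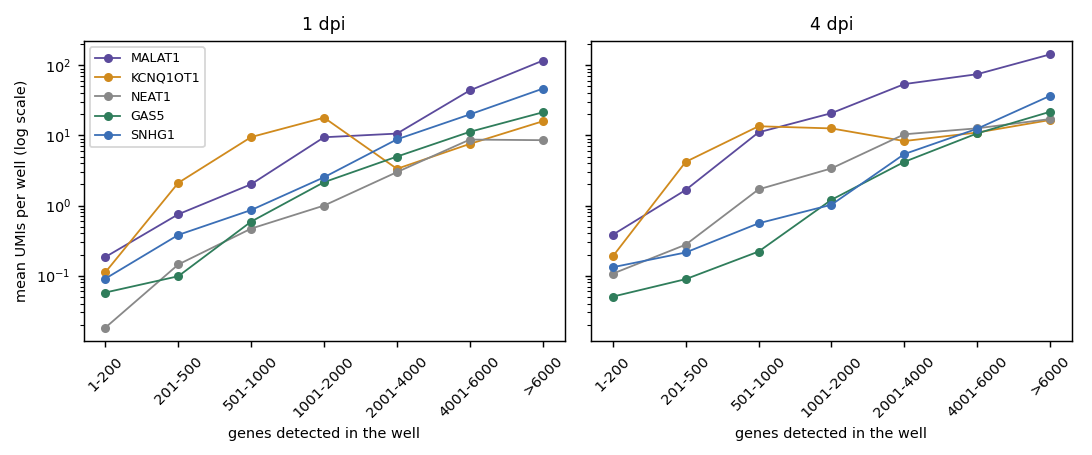
Mean UMIs per well (y axis, log scale) of 5 members in wells grouped by the number of genes detected (x axis), over all wells of 1 dpi (left) and 4 dpi (right). MALAT1, NEAT1, GAS5 and SNHG1 increase with gene number almost throughout, whereas KCNQ1OT1 is higher in wells of 501 to 2000 genes than in those of 2001 to 4000 (17.9 against 3.34 UMIs per well for 1001 to 2000 genes at 1 dpi).

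Genes whose products work with the members were taken from lists, and are given as counts with log2 changes from the same fits, to be read against the 13.3% of all genes called higher and 14.4% called lower over time, and the 5.69% and 4.98% in the high-mitochondrial wells. Of 20 nuclear speckle protein genes, the compartment of MALAT1, 9 fell and 0 rose at 4 dpi, with a median log2 change of -0.20. The smallest p-values were those of SRSF4 (-0.74) and LUC7L3 (-0.53), both splicing regulators. In high-mitochondrial wells 4 rose and 4 fell (median 0.19), TRA2B (-1.09) and SRSF3 (-0.98) down and SRSF10 (0.78) and SRSF11 (0.57) up. Of 19 paraspeckle protein genes, NONO alone rose at 4 dpi (0.35) while NEAT1 rose, and 3 fell, led by RBM12 (-0.50) and CPSF7 (-0.31). The median was -0.016. In high-mitochondrial wells 1 of them rose, SMARCA4 (0.63), and 2 fell, HNRNPH3 (-0.63) and RBM12 (-0.99).

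For the snoRNA hosts, 0 of 16 genes of nonsense-mediated decay rose at 4 dpi and 4 fell, among them the translation termination factors ETF1 (-0.47) and GSPT1 (-0.35), with a median of -0.12. Of 13 tested genes for proteins that assemble snoRNAs into particles, 3 fell, including SHQ1 (-1.01) and NOLC1 (-0.37), and 0 rose. In the high-mitochondrial wells UPF3B rose (0.72) and ETF1 (-0.74) and EIF4A3 (-0.92) fell among the decay factors, and SNU13 (-0.52) was the snoRNA particle gene that fell. Of 14 other long non-coding RNAs tested over time, 3 rose, including GABPB1-AS1 (0.88) and TUG1 (0.62), and 3 fell, including RPPH1 (-1.47) and HOTAIRM1 (-0.46). In high-mitochondrial wells 3 of 13 rose, among them GABPB1-AS1 (2.17) and MIR17HG (1.94), and 0 fell.

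Of the imprinted domain around KCNQ1OT1, 6 of 8 genes could be tested. At 4 dpi CDKN1C, an inhibitor of cyclin-dependent kinases, rose (log2 change 1.28 ± 0.16, SE, edgeR adjusted p = 4.4e-05), and PHLDA2, a growth-restraining gene of the placenta, fell (-1.31 ± 0.14, adjusted p = 5.4e-06). CD81 (0.52) and TSSC4 (0.54) also rose, and SLC22A18 (-0.23, adjusted p = 0.63) and NAP1L4 (-0.15, adjusted p = 0.38) did not pass the test. In the high-mitochondrial wells, where KCNQ1OT1 rose, PHLDA2 (-2.85) and CDKN1C (-1.41) both fell. KCNQ1 had 4 to 11 UMIs per library in the passing wells, too few for a test, against 1490 to 2252 of KCNQ1OT1. Of the 11 neighbours of the other members, 9 could be tested. Among them, SARDH and SLC3A2 (0.27), the latter next to SNHG1, rose at 4 dpi, and LTBP3 (-0.94) fell. SLC3A2 (-0.73) fell and LTBP3 (1.22) rose in the high-mitochondrial wells.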

How the data were processed

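Raw UMI counts per gene and well were deposited by the authors for 5 libraries. SORT-seq (CEL-Seq2) reads had been aligned with BWA to the human reference transcriptome (hg38 in the submitters' processing notes, which give no tool version). Values are counts as deposited, without normalization. Genes listed in all 5 tables and seen in at least 10 wells were kept. A well's MT- percentage used all its counts, ERCC included. Counts were summed per library and class of well, without MT- and ERCC rows, and tested with edgeR 4.0.16 in R 4.3.3 (filterByExpr, TMM, quasi-likelihood F test, Benjamini-Hochberg, threshold 0.05). SE is the absolute log2 change divided by the square root of F. DESeq2 1.42.0 and other alternatives are given at the end. The fits were also run on counts simulated with the spread they had estimated, so that run cannot show that this spread is right. Wells were thinned without replacement (seed 1). Replicates of a time point were plates; replicate numbers were not shared between times. All 8 members passed the filter in both fits, DBH-AS1 over time through its 4 dpi libraries. Members and lists were chosen with earlier results of these data known. Doublets were not called, since the sorting was meant to place 1 cell in each well. Named genes were the members, the 3 genes most like 5 of them, the called list genes with the lowest p per direction, and neighbours. The class-by-time test was not run. A result for 1 neighbouring gene is not reported here.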

Additional observations from a re-analysis of the deposited data

Results flagged for a closer look

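The wells of 2000 genes or fewer entered no test, yet held UMIs of every member above the limit that a count of 0 allows (5.15 CPM over these 1034 wells, from 3 counts). Pooled over both time points, KCNQ1OT1 was at 7354 CPM, MALAT1 at 5742, NEAT1 at 910, SNHG1 at 737, GAS5 at 505, SNHG8 at 489, EPB41L4A-AS1 at 232 and DBH-AS1 at 58.4. The last of these came from 34 UMIs, 32 of them at 4 dpi. The time points differed: MALAT1 was at 2644 CPM at 1 dpi and 8669 at 4 dpi, and KCNQ1OT1 at 6485 and 8175. These levels are not scaled to transcript length.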

How the results depend on the processing

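Depth limits DBH-AS1 most, and the high-mitochondrial comparison rests on 4 sums, so that without library 10 or 11 it gives values but no test. Its class-by-time form was not run, since no 1 dpi library reached 10 high-mitochondrial wells. No paired analysis was possible because replicate numbers were not shared between the time points, but with the run name as a term 7 members (6 higher, 1 lower) and 3616 genes were called over time. Over time, 104 of 127 values of a member under an alternative kept their direction and side of the threshold, 20 lost the call and 3 changed sign. For the high-mitochondrial wells these counts were 93, 9 and 2 of 104. Among these, the values without library 10 or 11 had no test and were compared by direction only. The alternative of at least 5 wells per sum used the same sums as the main fit, so its values could not differ. The causes were not tested.

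Over time, scaling to ERCC UMIs gave 0 members called, 0 higher and 0 lower, with 3 genes called in all and GAS5 at -0.055 (log2). Thinned wells gave 1273 genes called (DBH-AS1 could not be tested), and wells under 15% MT- counts 0 members lower. Leaving out 1 library gave 5 to 7 members called, 4 to 6 higher and 0 to 1 lower (0 without library 11), and 2353 to 2935 genes called. GAS5 then ranged from -0.017 (without library 6) to 0.18 (without library 11), and was at -0.016 without library 10. KCNQ1OT1 was also not called in wells over 1000 genes (adjusted p = 0.19) or over 3000 (adjusted p = 0.0504), nor EPB41L4A-AS1 in thinned wells (adjusted p = 0.11).

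For the high-mitochondrial wells, DESeq2 called 5 members, 1 lower, and 231 genes. ERCC scaling called 5 members, 0 higher, and 8799 genes, with NEAT1 at -0.37. Thinned wells gave 2 members lower and 381 genes called. Passing wells under 4000 genes, an alternative chosen after seeing the data, gave 383 genes called of 4617, with NEAT1 at -0.064.

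Thinning to 5000 UMIs lowered the mean share of passing wells with a UMI (first 1 dpi, then 4 dpi) to 94.0% and 95.5% for MALAT1, 52.4% and 71.8% for NEAT1, 69.6% and 82.6% for KCNQ1OT1, 87.2% and 86.7% for GAS5, 92.6% and 89.0% for SNHG1, 84.0% and 92.4% for SNHG8, 71.1% and 75% for EPB41L4A-AS1, and 0.721% and 7.76% for DBH-AS1. Of the 15 genes most like a member, 9 were among the first 3 in thinned wells.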
